A study of Mus musculus with 8 samples.

Results

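The Toll-like receptors are 10 genes here, Tlr1 to Tlr9 and Tlr13, chosen by gene symbol among the 24786 symbols of the count files, and each of the 10 passed the filter on low counts that left 15254 genes for testing. Tlr11 and Tlr12 of the mouse are also in the files but outside this set, so rankings and counts hold among the 10. The mRNA of the 10 was measured in 8 libraries of polyadenylated RNA from liver macrophages of C57BL/6 mice, 2 libraries in each of 4 groups. Monocyte-derived macrophages (MoM) came from mice of the genotype dnTGFβRII (TG MoM) and from wild-type mice (WT MoM), and liver-resident Kupffer cells came from the same genotypes (TG Kupffer and WT Kupffer). The transgene encodes a dominant-negative form of the type II receptor for TGF-β under a T cell promoter and the mice serve as a cholangitis model, so that the macrophages of TG mice are not themselves the cells in which it was built to act. The labels give no age, and they do not say how the macrophages were separated or whether the 2 libraries of a group came from separate animals, so p-values measure the spread between these libraries, which may be technical.

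Toll-like receptors are membrane proteins of innate immune cells that bind molecules typical of microbes or of damaged tissue through a leucine-rich ectodomain and signal through a cytoplasmic TIR domain. Tlr1, Tlr2, Tlr4, Tlr5 and Tlr6 act mainly at the cell surface on lipopeptides, lipopolysaccharide and flagellin. Tlr3, Tlr7, Tlr8, Tlr9 and Tlr13 act in endosomes on nucleic acids, after the chaperone Unc93b1 has carried them there and, for several of them, proteases have cleaved the ectodomain. Most signal through the adaptor Myd88, Tlr3 signals through Ticam1 (TRIF), and Tlr4 uses both, with NF-κB and interferon regulatory factors downstream. In the liver, macrophages meet microbial products that arrive from the gut in portal blood.

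Library totals ranged between 26190194 and 30308132 counts. Levels are given in CPM (counts scaled to library size by edgeR with TMM factors), where a lone count stood for 0.0309 to 0.0378 CPM. Summed CPM of 7 Kupffer cell markers (Clec4f, Vsig4, Timd4, Cd5l, Marco, Adgre1 and Folr2) was 747 and 420 in TG MoM and 8600 and 306 in WT MoM, against 28098 and 13812 in TG Kupffer and 27995 and 28050 in WT Kupffer, which set WT MoM replicate 1 and TG Kupffer replicate 2 apart from their partners. These same libraries had the most RNA of 6 sinusoidal endothelial markers, with 4237 CPM in WT MoM replicate 1 and 6910 CPM in TG Kupffer replicate 2, against 383 to 1875 CPM in the other 6 libraries. Neutrophil markers (7 genes) summed to 108 and 3660 CPM in TG MoM and 57.0 and 547 CPM in WT MoM, against 14.4 to 32.1 CPM in TG Kupffer and 1.94 to 2.20 CPM in WT Kupffer, where Camp was at 0. Markers of type 1 conventional dendritic cells (cDC1, 6 genes) summed to 1869 and 1429 CPM in TG MoM and 2159 and 2031 CPM in WT MoM. Their sums were 719 to 877 CPM in the Kupffer libraries. Those of type 2 (cDC2, 6 genes) summed to 711 and 806 CPM in TG MoM and 626 and 984 CPM in WT MoM. The Kupffer libraries had 24.3 to 56.9 CPM of the cDC2 markers. In bulk RNA, fewer cells of a type and less RNA per cell cannot be told apart. Tlr7, Tlr8 and Tlr13 lie on the X chromosome, and Xist had 313 to 817 CPM in all 8 libraries while Uty was at 0. Ddx3y, Kdm5d and Eif2s3y had traces in TG Kupffer replicate 2 or TG MoM replicate 2 and were at 0 elsewhere. The largest trace was Eif2s3y at 0.147 CPM in TG Kupffer replicate 2, so that no library stood apart as male.

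Sequence bears on how these genes can be counted, and a stretch shared by Tlr1 and Tlr6 is therefore shown first. Tlr1 (ENSMUSG00000044827, chr5:64924679-64933563, minus strand) and Tlr6 (ENSMUSG00000051498, chr5:64952031-64960097, minus strand) are neighbours in GRCm38 with the GENCODE M21 annotation. Their longest transcripts share an identical coding run of 229 bases, given in transcript orientation:
Tlr1 and Tlr6: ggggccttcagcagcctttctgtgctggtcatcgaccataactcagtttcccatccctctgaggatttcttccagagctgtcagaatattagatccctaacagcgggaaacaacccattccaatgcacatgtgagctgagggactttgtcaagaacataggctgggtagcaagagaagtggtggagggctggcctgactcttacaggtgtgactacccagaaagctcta
In windows of 50 bases, 748 bases were shared, or 24.7% of the Tlr1 transcript and 20.3% of the Tlr6 transcript. How reads from such stretches were assigned is not given in the sources used here, so the values of Tlr1 and Tlr6 are uncertain to that extent. No other pair of the 10 genes shared a run above 18 bases. Tlr3 (ENSMUSG00000031639, chr8:45395665-45411080, minus strand) has 381 exon bases, 7.32% of its exon sequence, under the opposite-strand gene Gm45542, and without a stated strand setting those reads cannot be told apart.

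Promoter windows were read for the 3 genes that were first or second in level per transcript length in at least 1 group, Tlr2, Tlr8 and Tlr13 to show the sequence before the most abundant of these receptors. They come from RefSeq promoters (GRCm38.p6), in the orientation of the gene, as 250 bases before the start site and 20 after it, and capitals mark matches to a motif on either strand.
Tlr2, chr3:83841589-83841858, minus strand: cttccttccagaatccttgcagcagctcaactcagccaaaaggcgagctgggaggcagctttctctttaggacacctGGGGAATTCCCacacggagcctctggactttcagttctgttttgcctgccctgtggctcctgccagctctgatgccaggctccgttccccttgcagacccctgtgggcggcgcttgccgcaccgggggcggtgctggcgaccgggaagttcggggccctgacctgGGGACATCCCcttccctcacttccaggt
Tlr8, chrX:167264310-167264579, minus strand: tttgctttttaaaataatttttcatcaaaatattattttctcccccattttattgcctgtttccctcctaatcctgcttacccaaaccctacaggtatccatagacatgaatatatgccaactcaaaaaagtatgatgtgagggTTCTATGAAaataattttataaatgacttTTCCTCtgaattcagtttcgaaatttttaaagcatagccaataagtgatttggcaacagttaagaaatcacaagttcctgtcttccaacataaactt
Tlr13, chrX:106143025-106143294, plus strand: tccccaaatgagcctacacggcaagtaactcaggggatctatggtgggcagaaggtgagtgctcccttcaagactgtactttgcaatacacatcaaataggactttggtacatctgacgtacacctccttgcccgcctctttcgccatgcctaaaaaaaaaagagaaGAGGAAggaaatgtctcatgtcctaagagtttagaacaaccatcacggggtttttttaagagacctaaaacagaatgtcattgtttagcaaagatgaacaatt
The motifs searched were GAGGAA, the core bound by PU.1, TTCNNNGAA, the GAS element bound by STAT factors, TGANTCA, the AP-1 element, the ISRE bound by interferon regulatory factors, and the NF-κB element. The Tlr2 window held 3 NF-κB matches, starting 173, 172 and 8 bases before the start site, of which the first 2 overlap; 8.46% of 32851 promoters hold a match in a window of 250 bases before and 50 after the start. The Tlr8 window held a GAS match 106 bases before the start (8.3% of promoters hold one) and the PU.1 core on the opposite strand 77 bases before it (28.3% of promoters). In the Tlr13 window the PU.1 core lay 83 bases before the start. Of the 10 genes, 8 matched the table, and Tlr4 and Tlr7 had no entry. A match is a description of letters and not a bound site.

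Compared per kilobase of annotated exon, the only scale on which levels of different genes are set side by side here, Tlr2 (ENSMUSG00000027995, chr3:83836272-83841767), which pairs with Tlr1 or Tlr6 to sense bacterial lipopeptides, had the highest level in 3 of the 4 groups. It averaged 106 ± 26.2 CPM per kilobase in TG MoM, 55.6 ± 5.67 in WT MoM and 65.4 ± 22.0 in TG Kupffer (SD, n = 2 each). In WT Kupffer the highest level was that of Tlr8 (ENSMUSG00000040522, chrX:167242696-167264329), an endosomal receptor that binds RNA products in humans, with 78.3 ± 6.14 CPM per kilobase, apart from Tlr2 at 63.9 ± 8.92 (SD, n = 2). Behind Tlr2 in both MoM groups came Tlr13 (ENSMUSG00000033777, chrX:106143204-106160493), a mouse receptor for bacterial ribosomal RNA. In TG MoM its libraries lay above those of every receptor below it, while in WT MoM they overlapped with the next, Tlr7 (ENSMUSG00000044583, chrX:167304929-167330558), a receptor for single-stranded RNA.

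**Figure D1:**
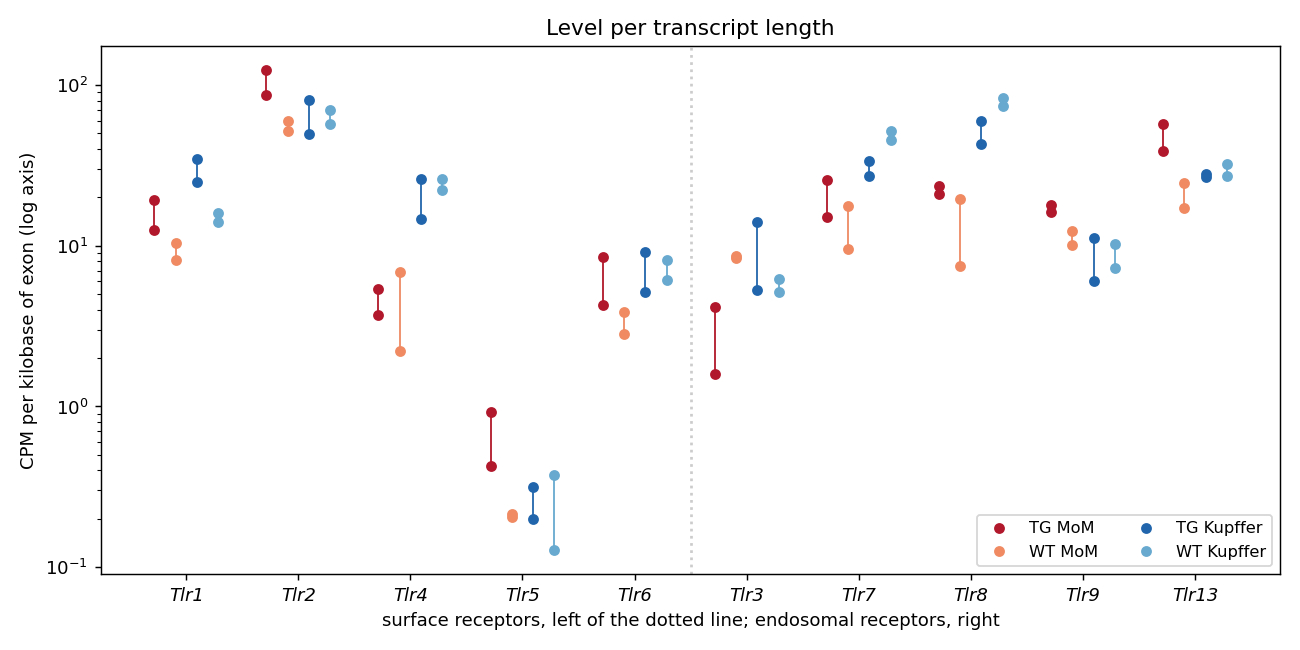
CPM per kilobase of exon (log axis) of each receptor, with surface receptors left of the dotted line and endosomal receptors right of it. Points are the 2 libraries of a group, joined by a line, and colours mark TG MoM, WT MoM, TG Kupffer and WT Kupffer; Tlr2 is highest or second in every group and Tlr5 lowest in every group.

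The order below the top differed between the subsets. In WT Kupffer the order was Tlr8, Tlr2, Tlr7, Tlr13, Tlr4 and Tlr1, each with its libraries apart from those of the next, and Tlr9, Tlr6 and Tlr3 followed with overlap among neighbours. Per kilobase of the longest transcript instead, Tlr4 (32.8) stood before Tlr13 (31.5) in WT Kupffer and their libraries overlapped, Tlr1 (33.2) stood before Tlr7 (31.9) in TG Kupffer, and Tlr1 (17.6) before Tlr9 (17.1) in TG MoM. In TG Kupffer, Tlr2 and Tlr8 overlapped at the top, then Tlr7, Tlr1 and Tlr13 overlapped with one another in turn. In TG MoM, Tlr8, Tlr7, Tlr9 and Tlr1 formed an overlapping run from 22.3 down to 16.0 CPM per kilobase, and Tlr4 (4.54) and Tlr3 (2.88) stood near the bottom. In WT MoM, Tlr3 reached 8.50 CPM per kilobase and lay above Tlr4 (4.55) and Tlr6 (3.35). Tlr5 was lowest in all 4 groups. Endosomal receptors made up 46.9% and 44.3% of the summed level per kilobase of the 10 genes in the TG MoM libraries, 51.1% and 45.0% in WT MoM, 46.3% and 56.8% in TG Kupffer and 58.1% and 63.3% in WT Kupffer. Their share was thus highest in both WT Kupffer libraries. Tlr12, outside the 10, had 49.9 and 49.7 CPM per kilobase in WT Kupffer and enters neither this share nor the order.

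**Figure D2:**
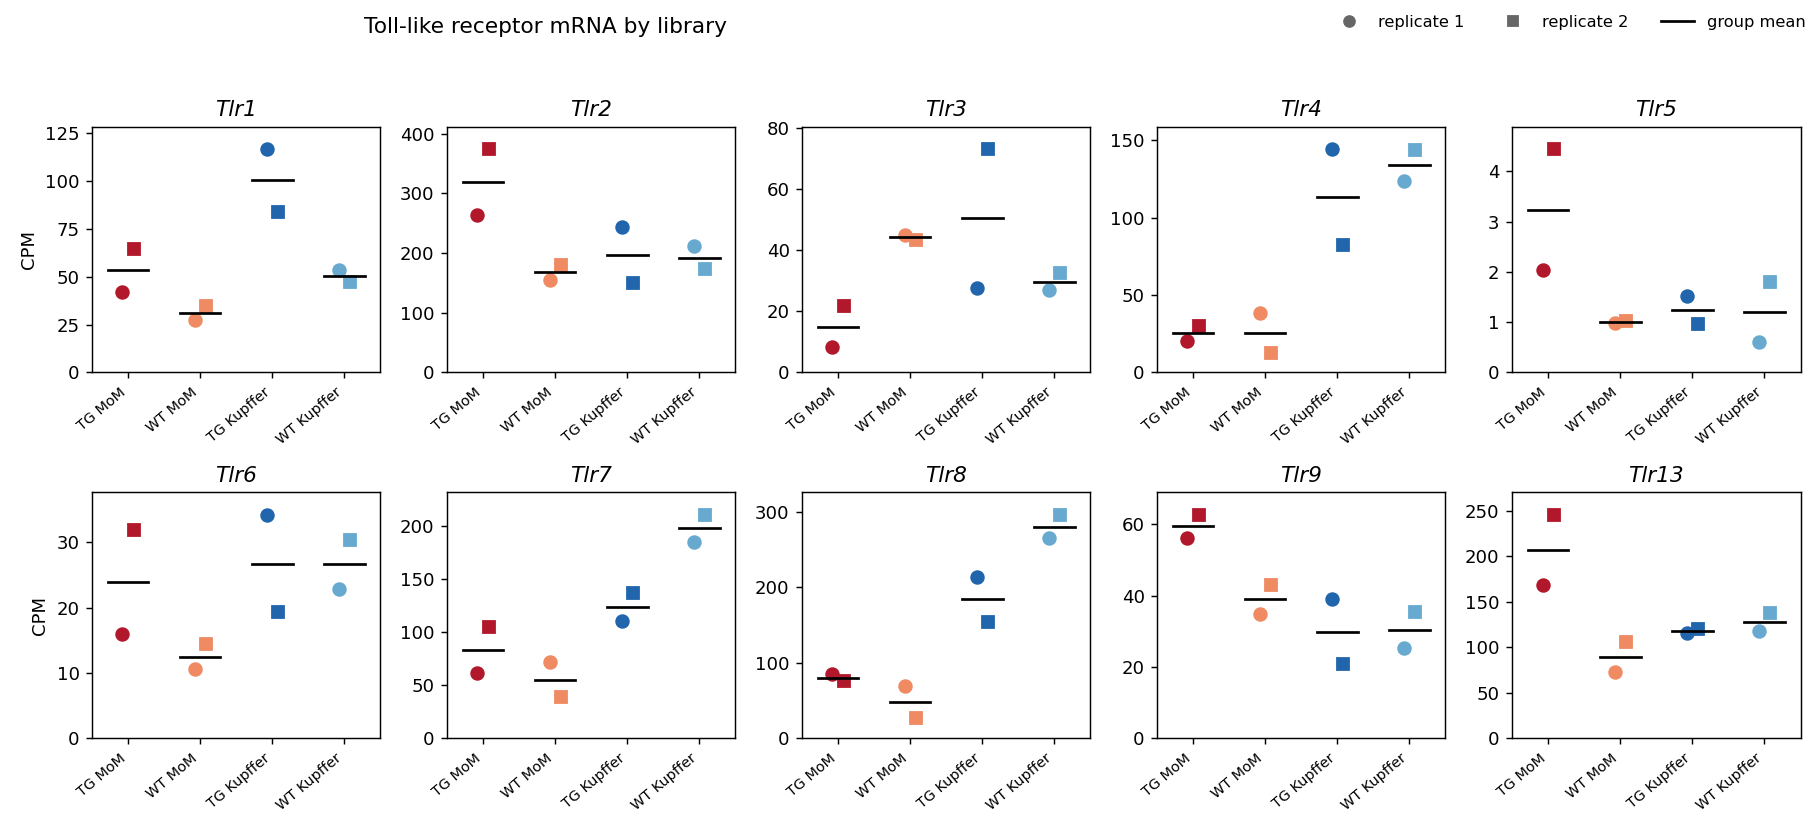
CPM of each of the 10 receptors in every library, with circles for replicate 1, squares for replicate 2 and a bar at the group mean; groups run TG MoM, WT MoM, TG Kupffer, WT Kupffer from the left, and each axis starts at 0. Tlr4, Tlr7 and Tlr8 are lower in all 4 MoM libraries than in all 4 Kupffer libraries.

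MoM were set against Kupffer cells within each genotype to ask how the subsets differ. In WT mice, 6 of the 10 receptors had both MoM libraries below both Kupffer libraries (29.7% of all tested genes did) and 1 had both above (38.5% of all genes). None of the 10 was called in the WT comparison at an adjusted p below 0.05 in edgeR's quasi-likelihood test with Benjamini-Hochberg adjustment over all genes, where 1.17% of all genes were. At an unadjusted p below 0.05, 5 receptors were lower and 0 higher, against 10.5% and 14.9% of all genes, and DESeq2 called 3 lower (Tlr4, Tlr7 and Tlr8) and 0 higher, against 6.75% and 11.7% of the genes it gave an adjusted p. The median log2 fold change was -0.61 over the 10 receptors and 0.11 over all genes. Leaving out TG Kupffer replicate 1, TG Kupffer replicate 2 or WT MoM replicate 1 brought 3 calls each, all lower (Tlr4, Tlr7 and Tlr8), where 8.63%, 9.03% and 4.59% of all genes were called. In TG mice 4 receptors had both MoM libraries above (29.1% of all genes) and 5 had both below (23.8% of all genes). Again edgeR called 0 of the 10 receptors, against 2.5% of all genes, with 2 higher and 4 lower at an unadjusted p below 0.05 (14.1% and 11.4% of all genes), and DESeq2 called 2 lower (Tlr3 and Tlr4) and 0 higher, against 8.85% and 8.55% of its genes. The median was -0.36 over the 10 receptors and -0.04 over all genes in TG mice. Leaving out WT MoM replicate 1 or 2 brought 2 calls each in TG mice, both lower (Tlr4 and Tlr8), where 6.33% and 6.54% of all genes were called.

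Among the surface receptors, Tlr4 (ENSMUSG00000039005, chr4:66827584-66930284, plus strand), the receptor for lipopolysaccharide, stood lowest in MoM relative to Kupffer cells. Its level was 20.6 and 29.9 CPM in TG MoM and 38.4 and 12.3 CPM in WT MoM, against 144 and 82.0 CPM in TG Kupffer and 124 and 144 CPM in WT Kupffer. All 4 MoM libraries lay below all 4 Kupffer libraries, in both genotypes. The log2 fold change of MoM against Kupffer was -2.40 ± 0.58 in WT (SE, n = 2 libraries a group, unadjusted p = 0.00526, adjusted p = 0.0939, edgeR) and -2.17 ± 0.57 in TG (unadjusted p = 0.00828, adjusted p = 0.0887). DESeq2 called both, with adjusted p = 0.000787 in WT and 0.00246 in TG. WT MoM replicate 1, the MoM library with 8600 CPM of Kupffer markers, had the highest Tlr4 of the 4 MoM libraries, and TG Kupffer replicate 2, with the least Kupffer marker RNA of its subset, had the lowest Tlr4 of the 4 Kupffer libraries. Without these 2 libraries the log2 fold changes were -3.48 in WT and -2.63 in TG, in a fit added after the data had been seen. In that fit WT MoM and TG Kupffer hold 1 library each that is assumed to vary like the other groups.

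Tlr1 and Tlr6, the partners of Tlr2 for triacylated and diacylated lipopeptides, were next. Tlr1 had 42.0 and 64.8 CPM in TG MoM and 27.4 and 34.6 CPM in WT MoM, against 117 and 84.0 CPM in TG Kupffer and 53.5 and 47.4 CPM in WT Kupffer. MoM were below Kupffer cells without overlap within each genotype, by a log2 fold change of -0.91 ± 0.29 in TG (unadjusted p = 0.0187, adjusted p = 0.122, edgeR) and -0.70 ± 0.29 in WT (unadjusted p = 0.0492, adjusted p = 0.196). Tlr6 had 16.0 and 31.9 CPM in TG MoM and 10.6 and 14.4 CPM in WT MoM, against 34.2 and 19.3 CPM in TG Kupffer and 22.9 and 30.4 CPM in WT Kupffer. Its libraries were apart in WT (log2 fold change -1.09 ± 0.44, unadjusted p = 0.0467, adjusted p = 0.191) and overlapped in TG (-0.16 ± 0.44).

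Tlr2 itself did not follow its partners. It had 263 and 375 CPM in TG MoM and 156 and 180 CPM in WT MoM, against 244 and 150 CPM in TG Kupffer and 211 and 173 CPM in WT Kupffer. The TG MoM libraries were above both TG Kupffer libraries, with a log2 fold change of 0.69 ± 0.31 (adjusted p = 0.232), and the WT libraries overlapped, with -0.20 ± 0.31 (adjusted p = 0.703). Tlr5 (ENSMUSG00000079164, chr1:182954788-182976044), the flagellin receptor, had few counts, with 54 and 128 counts in TG MoM and 32 and 32 in WT MoM, against 40 and 26 in TG Kupffer and 17 and 48 in WT Kupffer. At 0.611 to 4.44 CPM it was the least abundant of the 10 genes, and its fold changes carry the largest errors, 0.73 to 0.74 on the log2 scale.

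Among the endosomal receptors, Tlr8 had 84.8 and 75.4 CPM in TG MoM and 70.1 and 27.0 CPM in WT MoM, against 214 and 154 CPM in TG Kupffer and 265 and 296 CPM in WT Kupffer. All 4 MoM libraries lay below all 4 Kupffer libraries. The log2 fold change of MoM against Kupffer was -2.53 ± 0.46 in WT (95% interval -3.65 to -1.42, unadjusted p = 0.00127, adjusted p = 0.0657, edgeR), the smallest adjusted p of the 10 receptors in any comparison, and -1.20 ± 0.44 in TG (unadjusted p = 0.0330, adjusted p = 0.159). DESeq2 gave adjusted p = 8.95e-06 in WT and 0.0637 in TG. Without WT MoM replicate 1 and TG Kupffer replicate 2 the log2 fold changes were -3.41 in WT and -1.52 in TG. That edgeR fit was added after the data had been seen and leaves WT MoM and TG Kupffer 1 library each.

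Tlr7, whose gene neighbours Tlr8 on the X chromosome, had 61.8 and 105 CPM in TG MoM and 71.8 and 38.8 CPM in WT MoM, against 111 and 138 CPM in TG Kupffer and 186 and 211 CPM in WT Kupffer. MoM lay below Kupffer cells without overlap in both genotypes. In WT the log2 fold change was -1.84 ± 0.39 (unadjusted p = 0.00274, adjusted p = 0.0788, edgeR; DESeq2 adjusted p = 0.000281), and in TG it was -0.57 ± 0.38 (adjusted p = 0.398). Plasmacytoid dendritic cell markers, of a cell type known for high Tlr7 and Tlr9, summed to 145 and 190 CPM in TG MoM and 311 and 227 CPM in WT MoM, against 265 and 413 CPM in TG Kupffer and 347 and 328 CPM in WT Kupffer. Most of each sum was Bst2 (83.7 to 267 CPM) and Tcf4 (41.4 to 125 CPM). Siglech, Ccr9, Klk1 and Cox6a2 had no more than 13.4 CPM in any library, so the sums say little about this cell type. The part of plasmacytoid dendritic cells in the Tlr7 values was not tested.

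Tlr9 (ENSMUSG00000045322, chr9:106222598-106226883), the receptor for unmethylated CpG DNA, had 56.3 and 62.7 CPM in TG MoM and 34.9 and 43.1 CPM in WT MoM, against 39.0 and 20.9 CPM in TG Kupffer and 25.4 and 35.5 CPM in WT Kupffer. It was above Kupffer cells in both TG MoM libraries (log2 fold change 0.99 ± 0.35, unadjusted p = 0.0266, adjusted p = 0.142, edgeR), and the WT libraries overlapped (0.36 ± 0.34). B cell markers (5 genes) summed to 218 and 104 CPM in TG MoM and 93.1 and 157 CPM in WT MoM. Their sums were 20.1 to 37.9 CPM in the Kupffer libraries, and Cd79b alone overlapped between the WT subsets. The part of B cells in the Tlr9 values was not tested. Tlr13 had 168 and 246 CPM in TG MoM and 73.5 and 106 CPM in WT MoM, against 116 and 121 CPM in TG Kupffer and 118 and 138 CPM in WT Kupffer. MoM libraries were above Kupffer libraries in TG (0.81 ± 0.28, unadjusted p = 0.0250, adjusted p = 0.138) and below them in WT (-0.51 ± 0.28, adjusted p = 0.275).

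Tlr3, which binds double-stranded RNA, was highest in the library with the most endothelial marker RNA. It had 8.32 and 21.7 CPM in TG MoM and 45.1 and 43.4 CPM in WT MoM, against 27.8 and 73.2 CPM in TG Kupffer and 26.9 and 32.5 CPM in WT Kupffer. The highest value was in TG Kupffer replicate 2, where the endothelial marker sum was also highest (6910 CPM). The lowest was in TG MoM replicate 1, where that sum was lowest (383 CPM). Of the 6 markers, Stab2 alone had its lowest value there (58.4 CPM). Kdr, Clec4g, Lyve1 and Oit3 were higher there than in TG Kupffer replicate 1 (60.3, 43.0, 16.9 and 21.5 against 17.8, 13.6, 4.84 and 7.94 CPM). All 6 endothelial markers had counts in all 8 libraries, and endothelial cells are known to express Tlr3. Their part in its values was not tested. MoM were below Kupffer in TG (log2 fold change -1.75 ± 0.59, unadjusted p = 0.0231, adjusted p = 0.134, edgeR; DESeq2 adjusted p = 0.0232) and above Kupffer in WT (0.57 ± 0.57, adjusted p = 0.539), without overlap in either genotype. The TG value was -1.01 without TG Kupffer replicate 2 (adjusted p = 0.241), and -1.01 without that library and WT MoM replicate 1 together (adjusted p = 0.259, edgeR).

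**Figure D3:**
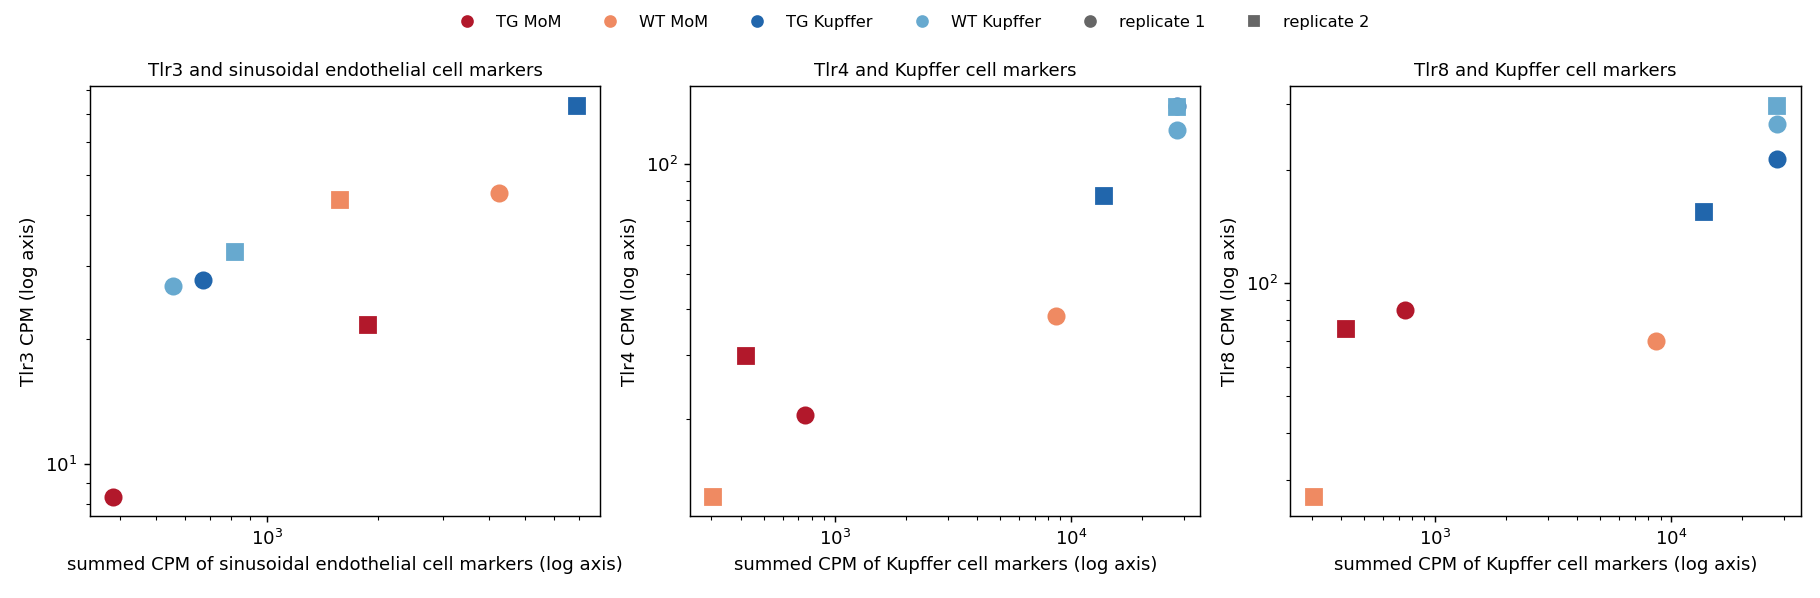
CPM of Tlr3 against the summed CPM of 6 sinusoidal endothelial markers, and of Tlr4 and Tlr8 against the summed CPM of 7 Kupffer cell markers, with log axes throughout. Each point is a library, coloured by group and shaped by replicate; Tlr3 is highest where endothelial markers are highest (6910 CPM), and Tlr4 and Tlr8 are highest in libraries with the most Kupffer marker RNA.

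The transgenic and wild-type mice were compared in MoM to ask what the cholangitis model changed in recruited macrophages. Both TG MoM libraries lay above both WT MoM libraries for 7 of the 10 receptors (19.2% of all genes) and below them for 1 (20% of all genes). None of the 10 was called in TG against WT MoM by edgeR's quasi-likelihood test with Benjamini-Hochberg adjustment, where 0% of all genes were called, or by DESeq2, which called 1% of its genes. At an unadjusted p below 0.05 in edgeR, 3 were higher (Tlr1, Tlr2 and Tlr13) and 1 lower (Tlr3), against 3.42% and 3.05% of all genes. The median log2 fold change was 0.75 over the 10 receptors and -0.04 over all genes.

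Tlr13 had the smallest p in TG against WT MoM, with a log2 fold change of 1.20 ± 0.28 (95% interval 0.53 to 1.88, unadjusted p = 0.00435, adjusted p = 0.755, edgeR), from the 168 and 246 CPM in TG MoM and 73.5 and 106 CPM in WT MoM given above. DESeq2 gave adjusted p = 0.0540. Tlr2 had a log2 fold change of 0.93 ± 0.31 (unadjusted p = 0.0242) and Tlr1 one of 0.78 ± 0.29 (unadjusted p = 0.0335). Neutrophils, which express Tlr2, differed in their markers between these libraries, with 108 and 3660 CPM in TG MoM and 57.0 and 547 CPM in WT MoM. Their part in these values was not tested. Without TG MoM replicate 2, which had 3660 CPM of these markers, the log2 fold changes were 0.91 for Tlr13, 0.65 for Tlr2 and 0.44 for Tlr1. Tlr6 (0.94 ± 0.44), Tlr8 (0.72 ± 0.44), Tlr9 (0.61 ± 0.34) and Tlr5 (1.68 ± 0.74) had TG libraries above WT libraries at unadjusted p of 0.0615 to 0.148, and for Tlr7 (0.60 ± 0.38) and Tlr4 (-0.0047 ± 0.55) the libraries overlapped. With 1 library left out, the log2 fold change ranged between 0.36 and 1.36 for Tlr6, 0.19 and 1.57 for Tlr8, 0.47 and 0.77 for Tlr9, 1.01 and 2.14 for Tlr5 and 0.16 and 1.12 for Tlr7. The upper ends for Tlr8 and Tlr7 came without WT MoM replicate 1, the MoM library with 8600 CPM of Kupffer markers, where Tlr4 was at 1.05. Without WT MoM replicate 2, Tlr8 was at 0.19, Tlr7 at 0.22 and Tlr4 at -0.60. The part of Kupffer cell RNA in these values was not tested.

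Tlr3 was the receptor that lay lower in TG MoM than in WT MoM, with a log2 fold change of -1.56 ± 0.58 (unadjusted p = 0.0351, adjusted p = 0.755, edgeR). The endothelial marker sum was 383 and 1875 CPM in TG MoM and 4237 and 1575 CPM in WT MoM. It was thus higher in TG MoM replicate 2 than in WT MoM replicate 2. The cDC1 marker sum was 1869 and 1429 CPM in TG MoM and 2159 and 2031 CPM in WT MoM. Of its genes, Xcr1 (4.59 and 13.1 against 65.0 and 51.6 CPM) and Clec9a (39.4 and 41.5 against 120 and 73.4 CPM) were lower in TG MoM. The libraries overlapped for Cd24a, Itgae, Wdfy4 and Irf8. The part of either cell type in the Tlr3 difference was not tested. With 1 library left out the log2 fold change ranged between -2.41 and -1.02.

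**Figure D4:**
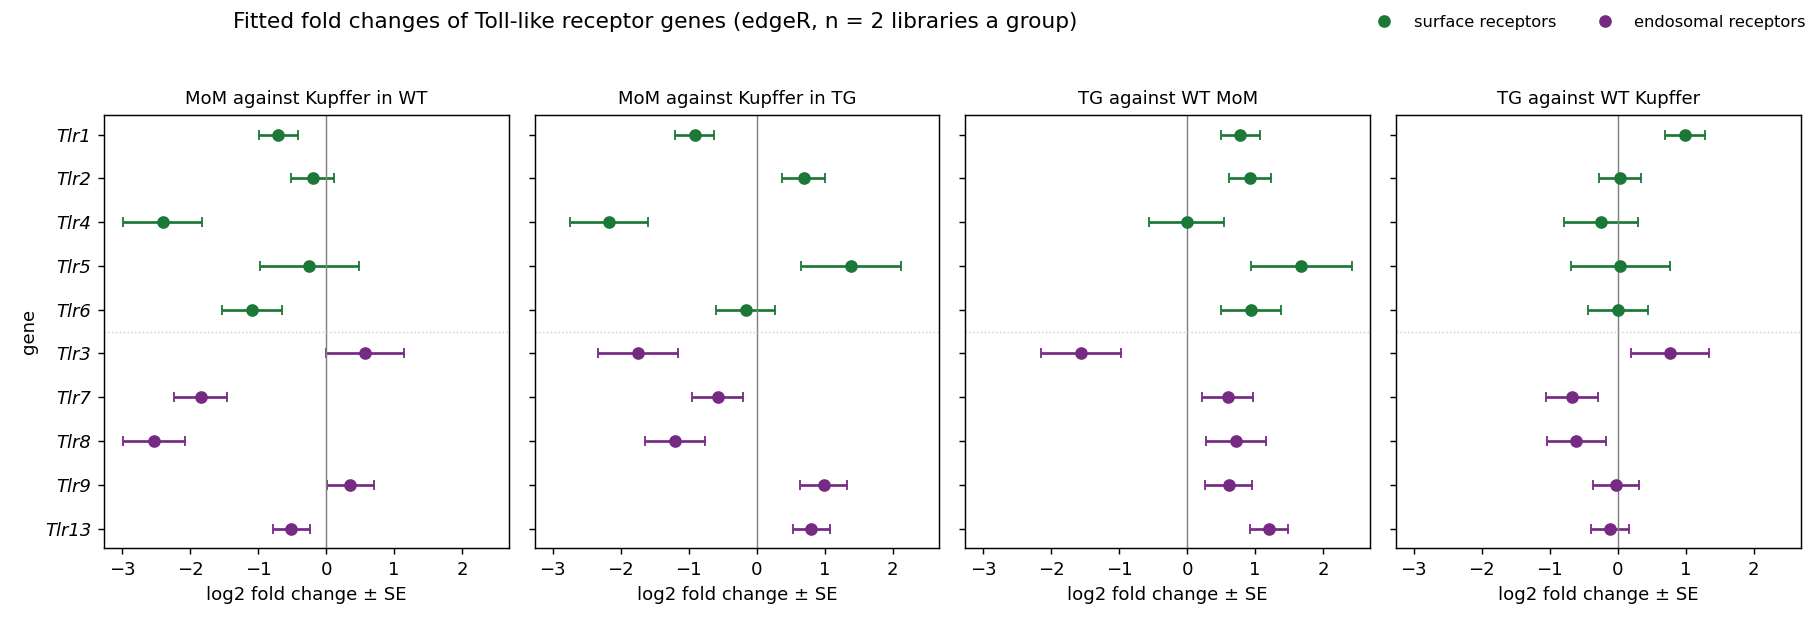
Log2 fold change of each receptor in 4 comparisons, from edgeR with n = 2 libraries a group, drawn as the estimate with its SE. Surface receptors are above the dotted line and endosomal receptors below it; Tlr4, Tlr7 and Tlr8 lie left of 0 in both comparisons of MoM with Kupffer cells, and 8 of 10 receptors lie right of 0 in TG against WT MoM.

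The same question was put to the resident Kupffer cells. The TG Kupffer libraries lay above the WT Kupffer libraries for 1 receptor, Tlr1, and below for 2, Tlr7 and Tlr8, where 16.7% and 17.7% of all genes did so. None of the 10 was called in TG against WT Kupffer by edgeR's quasi-likelihood test with Benjamini-Hochberg adjustment, where 0% of all genes were called, or by DESeq2, which called 1.89% of its genes. At an unadjusted p below 0.05, Tlr1 was higher (4.68% of all genes were) and 0 were lower (1.26% of all genes). The median log2 fold change was -0.01 over the 10 receptors and 0.03 over all genes.

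Tlr1 had a log2 fold change of 0.99 ± 0.29 in TG against WT Kupffer (unadjusted p = 0.0131, adjusted p = 0.730, edgeR; DESeq2 adjusted p = 0.139), from 117 and 84.0 CPM in TG Kupffer and 53.5 and 47.4 CPM in WT Kupffer. It is the receptor whose TG libraries lay above the WT libraries in both subsets, at 0.99 in Kupffer cells and 0.78 in MoM. Tlr7 (-0.67 ± 0.38, unadjusted p = 0.122) and Tlr8 (-0.61 ± 0.44, unadjusted p = 0.212) had TG libraries below WT libraries. Tlr8 had 214 and 154 CPM in TG Kupffer, beside Kupffer marker sums of 28098 and 13812 CPM, and 265 and 296 CPM in WT Kupffer, beside sums of 27995 and 28050 CPM. The near-equal sums hide opposite shifts in TG Kupffer replicate 1. Marco had 5492 CPM there against 687 and 743 CPM in WT Kupffer, and Clec4f had 6558 against 11553 and 12314 CPM. Cd5l and Timd4 were also higher there than in both WT Kupffer libraries, and Vsig4, Folr2 and Adgre1 were lower. The part of the marker difference in the Tlr8 values was not tested. Tlr2 (0.03 ± 0.31), Tlr6 (0.0061 ± 0.44), Tlr9 (-0.02 ± 0.34), Tlr13 (-0.11 ± 0.27), Tlr4 (-0.24 ± 0.55), Tlr5 (0.04 ± 0.73) and Tlr3 (0.77 ± 0.57) overlapped between TG and WT Kupffer.

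Whether the TG effect differed between the subsets was tested by the interaction, which subtracts the log2 fold change of TG against WT in Kupffer cells from that in MoM. By edgeR's quasi-likelihood test with Benjamini-Hochberg adjustment 0 of the 10 receptors passed, as did 0% of all genes, and DESeq2 called 0 of the 10 and 0.288% of its genes. At an unadjusted p below 0.05 there was 1 receptor with a positive difference, Tlr13 (1.32 ± 0.39, 95% interval 0.38 to 2.26, unadjusted p = 0.0136), and 1 with a negative one, Tlr3 (-2.32 ± 0.82, unadjusted p = 0.0277), where 2.66% and 3.76% of all genes were; both had adjusted p = 0.626. The difference was positive for 8 of the 10 receptors, with a median of 0.91 against -0.12 over all genes. Because the interaction is built from the same libraries as the comparisons above, it is no separate measurement.

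Genes that serve the receptors were described with 7 lists of 74 genes, of which 73 were tested. In WT MoM against WT Kupffer 1 of the 73 was called by edgeR and it was higher, where 1.17% of all genes were called. In TG MoM against TG Kupffer 2 were called and both were higher, where 2.5% of all genes were. In the other 3 comparisons 0 were, as were 0% of all genes. At an unadjusted p below 0.05 there were 10 higher and 20 lower in WT MoM against WT Kupffer, where 14.9% and 10.5% of all genes were. In TG MoM against TG Kupffer there were 13 higher and 14 lower, where 14.1% and 11.4% of all genes were. There were 5 higher and 0 lower in TG against WT MoM (3.42% and 3.05% of all genes), 2 higher and 0 lower in TG against WT Kupffer (4.68% and 1.26%), and 2 higher and 1 lower in the interaction (2.66% and 3.76%). DESeq2 called 5 higher and 14 lower in the WT comparison of the subsets (11.7% and 6.75% of its genes) and 9 higher and 13 lower in the TG comparison (8.55% and 8.85%), and 0 in the other 3 comparisons.

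The called genes were signal carriers and an inhibitor. Tnip3, which binds the ubiquitin-editing enzyme Tnfaip3 and restrains NF-κB, had 19.4 and 61.4 CPM in WT MoM, against 1.54 and 0.896 CPM in WT Kupffer. It rose in WT MoM by a log2 fold change of 5.04 ± 0.67 (adjusted p = 0.0369, edgeR). The call of Tnip3 ended without either WT Kupffer library, without either TG MoM library and without WT MoM replicate 2. Its log2 fold change was 3.99 to 5.47 in these fits. Each of them leaves a group 1 library and ended nearly all other calls too, so they cannot decide whether that of Tnip3 holds. Irak2, a kinase of the Myd88 complex, had 162 and 176 CPM in TG MoM, against 62.1 and 52.1 CPM in TG Kupffer, and rose by 1.57 ± 0.27 (adjusted p = 0.0476). Ikbkb, the catalytic IKKβ subunit that releases NF-κB, had 276 and 225 CPM in TG MoM, against 103 and 86.1 CPM in TG Kupffer, and rose by 1.41 ± 0.23 (adjusted p = 0.0425). Both calls ended without either library of TG MoM, TG Kupffer or WT Kupffer. The log2 fold changes there were 1.34 to 1.67 for Irak2 and 1.18 to 1.54 for Ikbkb. Each of these fits leaves a group 1 library, and except without TG Kupffer replicate 2 nearly all other calls ended too. Such fits cannot decide whether these calls hold. With only the 4 libraries compared both ended as well (adjusted p = 0.0961 and 0.112, edgeR), where 0% of all genes were called. The call of Irak2 also ended with median-of-ratios size factors (adjusted p = 0.0546, edgeR), where 2.28% of all genes were called. That of Ikbkb ended without WT MoM replicate 1 and TG Kupffer replicate 2 together, at a log2 fold change of 1.18. Neither Irak2 (0.87 ± 0.38) nor Ikbkb (0.85 ± 0.31) passed in the interaction (adjusted p = 0.626 each).

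Of the 20 kinases and ligases, 6 were higher and 1 lower in TG MoM against TG Kupffer at an unadjusted p below 0.05 (14.1% and 11.4% of all genes), and 3 higher and 5 lower in WT MoM against WT Kupffer (14.9% and 10.5% of all genes). Irak4, another kinase of the Myd88 complex, had -0.97 ± 0.24 in WT (unadjusted p = 0.00651, adjusted p = 0.100, edgeR), the smallest p of this list there. In TG against WT MoM 16 of the 20 had a positive log2 fold change, with a median of 0.27 against -0.04 over all genes. The signs come from the same libraries and are not independent of each other. At an unadjusted p below 0.05, 3 were higher (3.42% of all genes), and 0 were called by edgeR or DESeq2. Chuk, the IKKα subunit, was among the 3, at 0.70 ± 0.21 (unadjusted p = 0.0147, adjusted p = 0.755, edgeR). Of the 14 inhibitors, 5 were higher and 1 lower in WT MoM against WT Kupffer and 4 higher and 1 lower in TG MoM against TG Kupffer at an unadjusted p below 0.05, beside the same shares of all genes.

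**Figure D5:**
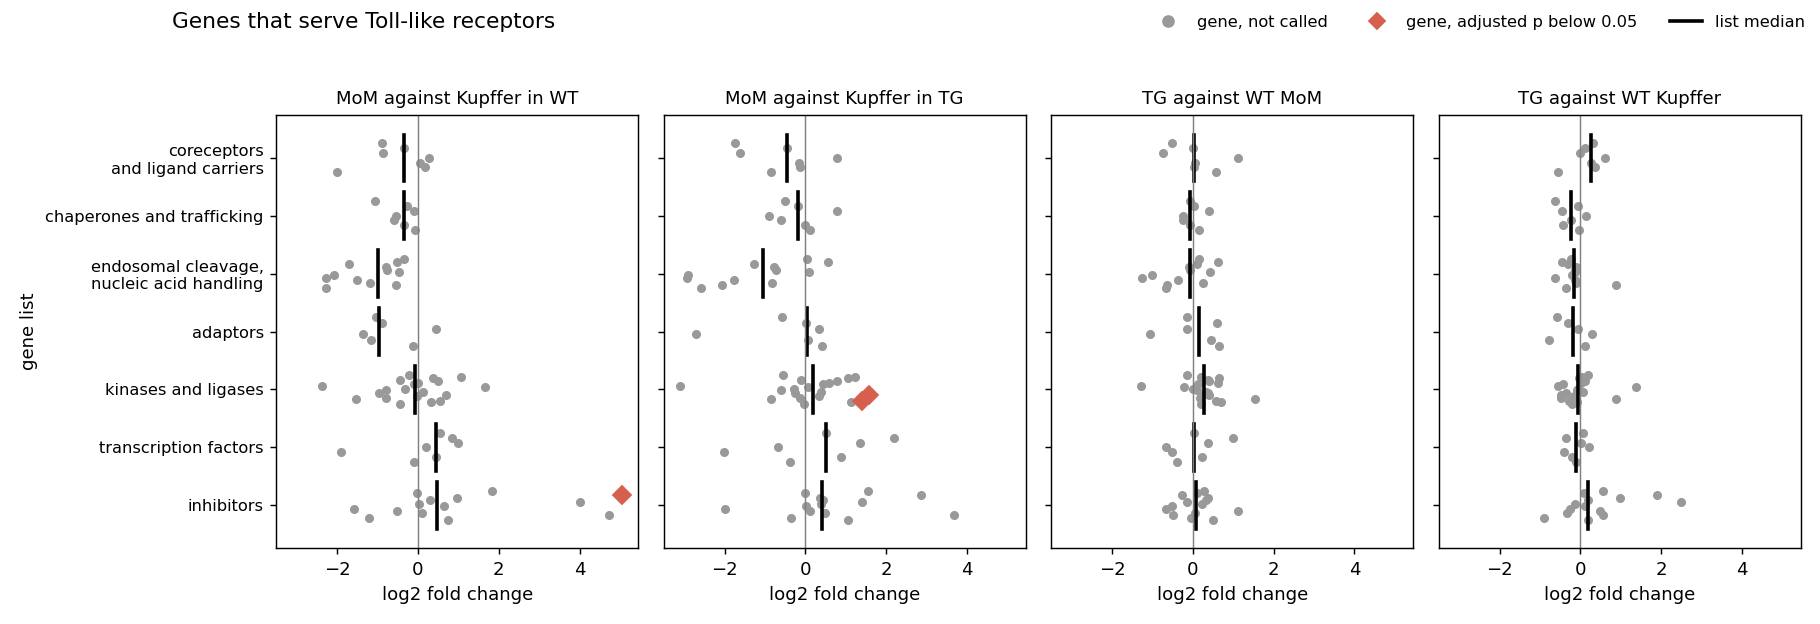
Log2 fold change of each tested gene of 7 lists (rows) in 4 comparisons (panels), with the list median as a black bar. Red diamonds mark the genes called at an adjusted p below 0.05, Tnip3 in WT MoM against WT Kupffer and Irak2 and Ikbkb in TG MoM against TG Kupffer; the endosomal list has its median at -0.99 in WT and -1.06 in TG.

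The list of endosomal cleavage and nucleic acid handling held proteases, nucleases and solute carriers of endosomes and lysosomes. Of its 12 genes, 11 had both WT MoM libraries below both WT Kupffer libraries (29.7% of all genes) and 9 did so in TG (23.8% of all genes), with median log2 fold changes of -0.99 and -1.06, and edgeR called 0 in either. In each genotype 8 of the 12 were lower at an unadjusted p below 0.05, against 10.5% of all genes in WT and 11.4% in TG, and DESeq2 called 8 lower in WT and 7 in TG, against 6.75% and 8.85% of its genes. Rnaset2a and Rnaset2b, both among the 8, had nearly equal log2 fold changes (-0.78 each in WT, -0.73 and -0.77 in TG). Whether they share reads was not tested, so they may not count as separate genes. Lgmn, an endosomal protease, had 288 and 246 CPM in TG MoM and 1029 and 257 CPM in WT MoM, against 2316 and 1727 CPM in TG Kupffer and 3104 and 3124 CPM in WT Kupffer. Its log2 fold change was -2.92 ± 0.65 in TG (adjusted p = 0.0692) and -2.28 ± 0.64 in WT (adjusted p = 0.112). Pld3, an exonuclease of endolysosomes, had -2.90 ± 0.55 in TG (adjusted p = 0.0550) and -2.09 ± 0.54 in WT (adjusted p = 0.103), and Dnase2a, which cuts DNA in lysosomes, had -1.76 ± 0.39 in TG (adjusted p = 0.0690) and -1.51 ± 0.39 in WT (adjusted p = 0.103).

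Among the coreceptors and ligand carriers 0 of 7 were called by edgeR in any comparison, with 1 lower at an unadjusted p below 0.05 (10.5% of all genes in WT and 11.4% in TG), and 1 lower by DESeq2 (6.75% and 8.85%), in each comparison of MoM with Kupffer cells. Cd14, which passes lipopolysaccharide to Tlr4, had 338 and 430 CPM in TG MoM and 402 and 111 CPM in WT MoM, against 1036 and 350 CPM in TG Kupffer and 1440 and 606 CPM in WT Kupffer. Its WT libraries did not overlap (log2 fold change -1.99 ± 0.81, adjusted p = 0.191), whereas its TG libraries did. Ly96, the extracellular partner of Tlr4, had 3.88 and 6.42 CPM in TG MoM and 9.29 and 5.53 CPM in WT MoM, against 15.8 and 18.5 CPM in TG Kupffer and 15.3 and 12.4 CPM in WT Kupffer, and MoM were below Kupffer cells in both genotypes (-1.73 ± 0.40 in TG, adjusted p = 0.0711; -0.90 ± 0.39 in WT, adjusted p = 0.207). Of 7 tested chaperones, likewise, edgeR called 0, with 1 lower at an unadjusted p below 0.05, and 1 lower by DESeq2, in each comparison of the subsets, beside the same shares. Unc93b1 had -1.05 ± 0.39 in WT (adjusted p = 0.166), and Hsp90b1, the chaperone gp96 that folds these receptors, had -0.91 ± 0.26 in TG (adjusted p = 0.0987).

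Adaptors and transcription factors gave values in both directions, and edgeR called 0 of the 6 adaptors and 0 of the 7 factors. With p below 0.05 before adjustment, 3 adaptors were lower in WT MoM against WT Kupffer (10.5% of all genes), 1 was lower in TG MoM against TG Kupffer (11.4%) and 1 was higher in TG against WT MoM (3.42%), and DESeq2 called 1 lower in each comparison of the subsets (6.75% of its genes in WT and 8.85% in TG). Among the factors 2 were higher and 1 lower in WT MoM against WT Kupffer (14.9% and 10.5% of all genes) and 3 higher and 1 lower in TG MoM against TG Kupffer (14.1% and 11.4%). DESeq2 called 1 factor higher and 1 lower in WT (11.7% and 6.75% of its genes) and 2 higher and 1 lower in TG (8.55% and 8.85%). Myd88 had 163 and 184 CPM in TG MoM and 112 and 108 CPM in WT MoM, against 150 and 109 CPM in TG Kupffer and 126 and 114 CPM in WT Kupffer. Its TG MoM libraries lay above the WT MoM libraries, at 0.66 ± 0.22 (unadjusted p = 0.0215, adjusted p = 0.755, edgeR). Tirap, which bridges Tlr2 and Tlr4 to Myd88, had -1.03 ± 0.31 in WT MoM against WT Kupffer (adjusted p = 0.126). Sarm1, a TIR adaptor with few counts here, had 0.301 and 0.382 CPM in TG MoM, against 2.80 and 1.70 CPM in TG Kupffer, at -2.70 ± 0.75 (adjusted p = 0.0947). Nfkb1, the p105 and p50 subunit of NF-κB, had 1.34 ± 0.25 in TG MoM against TG Kupffer (adjusted p = 0.0511) and 0.99 ± 0.24 in WT (adjusted p = 0.0986), while Irf7, which drives type I interferon genes after Tlr7 and Tlr9, had -2.00 ± 0.55 in TG (adjusted p = 0.0928) and -1.91 ± 0.55 in WT (adjusted p = 0.116). Irak3, an inhibitor of the Irak kinases, had 1.11 ± 0.31 in TG against WT MoM (unadjusted p = 0.0108, adjusted p = 0.755). In TG against WT Kupffer the smallest p of the inhibitors was that of Tnip3 (1.90 ± 0.60, unadjusted p = 0.0175, adjusted p = 0.730).

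Likeness between genes was described as Pearson's r of log2(CPM + 0.5) over the 8 libraries, which share their subset and genotype, so that r follows the group differences. Tlr4 and Tlr8 had r = 0.954, Tlr7 and Tlr8 had 0.928 and Tlr4 and Tlr7 had 0.896. Tlr2 and Tlr13 had 0.818, and Tlr1 and Tlr6, which share sequence, had 0.762, while Tlr2 and Tlr3 had -0.710. Among 8907 other genes that averaged 10 CPM or more, those most like Tlr8 were Pilra (0.998), Slmap (0.992) and Treml4 (0.991), and those most like Tlr4 were Acp2, Tmem87b and Tns4 (0.994 each). For Tlr7 they were Trim30a (0.992), Oas1a (0.977) and Oas1g (0.976), interferon-induced genes. Tlr2 was most like Myd88 (0.965), Fgr (0.946) and Exoc2 (0.945), and Tlr13 like Slc35c1 (0.953), Trim12a (0.933) and Atrx (0.931).

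Tlr1 was most like Nampt (0.974), Plgrkt (0.970) and Slc31a1 (0.956), and Tlr6 like Zfp992 (0.978), Kif3b (0.960) and Pira6 (0.953). Tlr9 was most like Arid3a (0.980), Card9 (0.964) and Ythdc2 (0.956). For Tlr3 the most like genes were Tacc2 (0.977), Gas6 (0.963) and Cyb5a (0.958), and for Tlr5, with few counts, Slc35c1 (0.929), Pik3r6 (0.927) and Fam168a (0.923). The authors' deposited table of 179 genes for TG against WT listed 0 of the 10 receptors and 0 of the 74 genes of the lists.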

How the data were processed

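The deposited files hold counts, 1 whole number per gene symbol and library; alignment was to mm10 with STAR 2.5.2b, per the submitters' processing notes. Which counter, gene models and strand option were used is not given in the sources used here. A table by the authors holds, per the file headers, DESeq2's log2 fold change and its error, a Wald score, a mean of normalized counts and raw and adjusted p-values; of it the gene names were used. Among counts under 20, 65.0% to 68.0% were even numbers, so counts may overstate independent fragments.

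All 8 libraries were fitted in edgeR 4.0.16 (R 4.3.3) with 4 groups, filterByExpr, TMM and the quasi-likelihood F-test, with Benjamini-Hochberg adjustment over 15254 genes and calls below 0.05. The biological coefficient of variation was 0.507, with 4 residual degrees of freedom. Intervals cover 95%. The script was tested on simulated data. DESeq2 1.42.0 was an alternative, beside size factors, no filter, a replicate block, each library left out, and only the 4 libraries compared. Members and lists were chosen with earlier results of these data known. By rule, all members were named, with the 3 genes most like each. List genes named were called or among the 3 of smallest p in their list and comparison, and not every gene that met this is printed. Tlr11, Tlr12, Rnaset2a and Rnaset2b were named outside this rule. Figures used matplotlib 3.10.9.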

Additional observations from a re-analysis of the deposited data

Results flagged for a closer look

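For 3 receptors the libraries lay on opposite sides in a pair of groups under the same contrast. Tlr8 in TG against WT had both TG libraries above both WT libraries in MoM (84.8 and 75.4 CPM in TG MoM, 70.1 and 27.0 CPM in WT MoM) and both below in Kupffer cells (214 and 154 CPM in TG Kupffer, 265 and 296 CPM in WT Kupffer). The difference of its log2 fold changes was 1.33 ± 0.62 (adjusted p = 0.626, edgeR). Tlr3 in MoM against Kupffer cells lay below in TG and above in WT, with a difference of -2.32 ± 0.82 (adjusted p = 0.626, edgeR), beside the endothelial marker sums given with it. Tlr13 lay above in TG and below in WT, with a difference of 1.32 ± 0.39 (adjusted p = 0.626, edgeR). The sides of 2 libraries against 2 are the description here, and in the test of the difference none of the 3 passed.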

How the results depend on the processing

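Of 50 log2 fold changes of the receptors, 39 kept their sign in every setting and 11 changed it in at least 1; the cause was not tested. In WT MoM against WT Kupffer the number of receptors called was 0 as reported, where 1.17% of all genes were called. It was 1 with no filter (Tlr8, 1.34% of all genes) and 2 with only the 4 libraries compared (Tlr7 and Tlr8, 10.9%). DESeq2 called 3 (18.4% of its genes), and 4 on those 4 libraries (25%). In TG MoM against TG Kupffer the number was 0 as reported (2.5% of all genes), 2 by DESeq2 (17.4%) and 5 by DESeq2 on 4 libraries (22.7%). The DESeq2 fit on 4 libraries and the fit without both TG Kupffer replicate 2 and WT MoM replicate 1 were chosen after seeing the data. In the other 3 comparisons it was 0 in all settings run.

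Signs reversed as follows. In TG against WT Kupffer, without both libraries, Tlr3 was at -0.048, Tlr4 at 0.16 and Tlr9 at 0.41; Tlr9 was at 0.0043 with no filter and at 0.0085 with only the 4 libraries compared. In TG against WT MoM, Tlr4 was at 0.0086 with size factors, 0.14 with the replicate block, 0.018 with only 4 libraries, 0.0075 by DESeq2, 0.0017 by DESeq2 on 4 libraries and 1.01 without both libraries. With 1 library left out, ranges in TG against WT Kupffer were -0.39 to 0.39 for Tlr2, -0.047 to 1.28 for Tlr3, -0.73 to 0.16 for Tlr4, -0.49 to 1.00 for Tlr5, -0.49 to 0.41 for Tlr6 and -0.56 to 0.41 for Tlr9. They were -0.60 to 1.05 for Tlr4 in TG against WT MoM, -0.85 to 0.65 for Tlr5 in WT MoM against WT Kupffer, -0.74 to 0.27 for Tlr6 in TG MoM against TG Kupffer, and in the interaction -0.55 to 0.081 for Tlr1 and -0.36 to 1.29 for Tlr4.

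The labels do not say what a replicate number marks, and deviations of same-numbered libraries correlated above 0.1 in 4 of 6 pairs of groups (up to 0.619, TG MoM with TG Kupffer) but not in WT MoM with WT Kupffer (-0.135) or TG MoM with WT MoM (0.0782), so the numbers were not taken as a pairing. With the number as a replicate block 0 receptors were called in every comparison. Of all genes, 1.53% were called there in WT MoM against WT Kupffer, 1.97% in TG MoM against TG Kupffer and 0% in the others. The calls of Irak2 (adjusted p = 0.0586) and Ikbkb (0.0555) ended under the block. With the numbers of WT MoM crossed, 0 receptors were called in WT MoM against WT Kupffer and the call of Tnip3 ended (adjusted p = 0.0638, edgeR). That fit called 0.0524% of all genes, against 1.17% as reported, so it says little about these genes in particular.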
